A study of Mus musculus with 11 samples.

Results

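The 10 genes described here encode the NF-kB transcription factor subunits and the IkB proteins that bind them. They were chosen by symbol from the deposited table, as Nfkb1, Nfkb2, Rela, Relb and Rel for the subunits and Nfkbia, Nfkbib, Nfkbie, Nfkbiz and Bcl3 for the IkB family. All 10 were present among the 48299 genes of the table, and all 10 passed the filter on low counts that kept 14346 genes. Messenger RNA was sequenced in 11 libraries of WFU3, a mouse prostate epithelial stem cell line that carried short hairpin RNAs against Map3k7, against Chd1 or against neither. Map3k7 encodes TAK1, a kinase that relays cytokine and Toll-like receptor signals to the IkB kinases, and Chd1 encodes a chromatin remodeller that is often deleted in prostate cancer.

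NF-kB works as dimers of its 5 subunits. In resting cells the classical inhibitors (Nfkbia, Nfkbib and Nfkbie, which encode IkB-alpha, IkB-beta and IkB-epsilon) hold these dimers in the cytoplasm. The IkB kinase complex, itself activated by TAK1, marks the inhibitors for destruction and so releases the dimers into the nucleus. Nfkbiz and Bcl3 encode atypical IkB proteins, which act in the nucleus on p50 or p52 dimers and alter which genes these activate. Several of the 10 genes are textbook NF-kB targets themselves, which closes feedback loops on the pathway.

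Every cell population carried 2 lentiviral hairpin vectors. The shMap3k7 group held 2 libraries of Map3k7 hairpin clones, isolated at clonogenic density, with a control hairpin as the second vector, which are clone 1 (passage 49) and clone 7 (passage 47). The shDouble group held 4 libraries, made by adding Chd1 construct 96526 or 96528 to clone 1 (passage 49) and to clone 7 (passage 48). The shChd1 group held 2 libraries, with construct 96526 (passage 52) or 96528 (passage 50) in control hairpin clone 4. The shControl group held 3 libraries with control hairpins only. Replicate 1 was a line marked puro and neo at passage 30, replicate 2 was control clone 4 and replicate 3 control clone 5, the last 2 at passage 52. All libraries other than the puro and neo line had a GFP vector first and a puromycin vector second. The 6 libraries with a Map3k7 hairpin therefore come from 2 clones, and no label says that libraries of a group were separate cultures, so the p-values measure only the spread between these libraries.

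Total counts ran from 14132371 to 23163709 per library. Map3k7 averaged 41.5 ± 2.07 CPM (counts scaled to library size, per 1e6 counts) in shMap3k7 (SD, n = 2), 41.0 ± 1.27 in shDouble (n = 4), 138 ± 0.264 in shChd1 (n = 2) and 134 ± 8.91 in shControl (n = 3). Chd1 averaged 229 ± 12.4, 186 ± 16.3, 148 ± 3.43 and 204 ± 8.61 CPM in the same groups. Its reduction against shControl was therefore small, and smaller in shDouble than in shChd1. The lines differed in Chd1 before its hairpin was added. Clone 1 had 221 CPM without it and 198 and 162 with it, and clone 7 had 238, and 194 and 190. Control clone 4 had 195 CPM without it and 145 and 150 with it. Cell type markers differed between the groups. The summed level of 8 prostate epithelial markers was 10216 to 10418 CPM in shMap3k7, 9985 to 10550 in shDouble, 2052 to 2314 in shChd1 and 3867 to 9706 in shControl, most of it Krt8, Krt18 and Krt14. Not all 8 followed the sum: Trp63 averaged 1.20 CPM in shMap3k7, 1.27 in shDouble, 19.7 in shChd1 and 9.56 in shControl, Krt5 0.214, 0.375, 0.996 and 16.4, and Krt14 2101, 2095, 555 and 2273 in the same groups. The shControl mean of Krt5 rested almost wholly on 1 library, at 48.9 CPM. The 8 fibroblast markers (Lum at 0 in every library) summed to 7.35 to 10.0 CPM in shMap3k7, 5.11 to 8.77 in shDouble, 120 to 125 in shChd1 and 24.5 to 92.8 in shControl. Most of the sum in shChd1 was Col3a1, at 89.1 CPM beside 17.7 in shControl, with Pdgfrb at 20.1 and 15.3. Col1a1 (2.19 and 6.51), Dcn (0.126 and 2.78) and Pdgfra (10.7 and 11.4) were lower in shChd1 than in shControl, by group means. The shControl mean of Dcn rested almost wholly on 1 library, at 8.24 CPM. The 7 immune markers present in the table stayed at or under 4.11 CPM in every library, with Cd3e at 0 and 11 counts of Ptprc in all. The 5 endothelial markers stayed at or under 0.498 CPM in every library except the puro and neo control line, which had 51.1 CPM. The part of these shifts in the results below was not tested, and in bulk RNA fewer expressing cells and less RNA per cell cannot be told apart.

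Set on a scale of CPM per kilobase of annotated exon, the 10 genes spanned more than a 10-fold range of level. The length was that of all annotated exons of a gene together, 12061 bases for Nfkb1, 4584 for Nfkb2 and 3072 for Rela. The order depends on this choice: not divided by length, Nfkb1 averaged 268 CPM over all libraries, Nfkb2 171 and Rela 140. Rela, which encodes the activating subunit p65, stood highest per kilobase at 45.6 ± 6.77 CPM per kilobase (SD over all 11 libraries). Nfkb2, the precursor of p52, followed at 37.3 ± 7.15 and Nfkbia at 36.1 ± 8.81, and the ranges of these 3 genes over libraries overlapped. Nfkb1, the precursor of p50, stood at 22.2 ± 7.12, Nfkbiz at 19.5 ± 6.33 and Nfkbib at 14.4 ± 4.07. Bcl3 averaged 10.8 ± 10.0 and ran from 1.85 to 24.2, a 13.1-fold range beside 1.69-fold to 4.19-fold ranges in the other members, so that it ranked from 5th to 10th of the 10 depending on the library. Relb (6.51 ± 2.06), Nfkbie (5.85 ± 2.94) and Rel, the c-Rel subunit known best from lymphocytes (3.22 ± 0.472), were the least abundant. Each gene overlapped its neighbour in this order over the libraries.

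**Figure D1:**
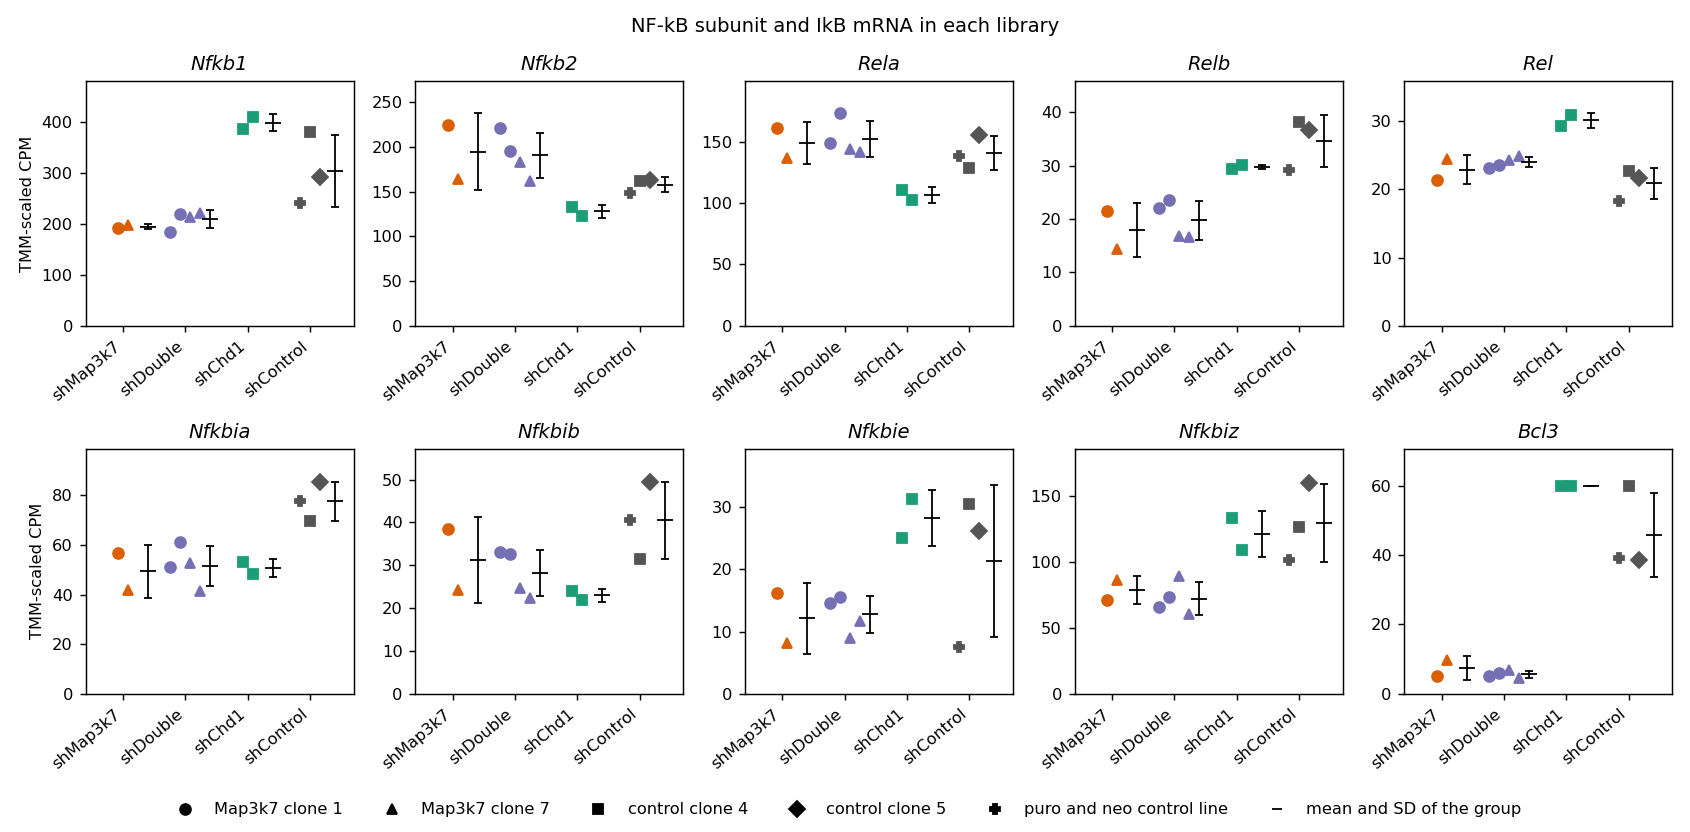
Each panel plots 1 gene, with the 4 groups along the x axis and TMM-scaled CPM on a linear y axis that starts at 0; symbols are single libraries, their shape gives the cell line, and the bar beside them is the group mean with its SD. Bcl3 lies between 4.58 and 9.78 CPM in all 6 libraries with a Map3k7 hairpin and between 38.7 and 59.9 CPM in the other 5.

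NF-kB binds a 10-base element, the kB site, in the promoters of several of its own components, so the promoters of the 10 genes were searched for it. RefSeq windows from 250 bases before to 50 bases after an annotated start (GRCm38.p6) were matched by symbol for 7 members, which leaves out Nfkb1, Relb and Nfkbiz. The degenerate kB consensus of 10 letters, searched on both strands with overlapping matches allowed, occurred in a window of 5 of these 7 genes: Nfkb2, Rel, Nfkbia, Nfkbie and Bcl3. The Rela and Nfkbib windows held no match. Over all genes with a window, 2581 of 27025 (9.55%) held a match, and over all windows of this length 2779 of 32851 (8.46%) did. Stretches that carry matches in each of the 5 genes are shown 5′ to 3′ on the strand of the gene, with matched bases in capitals, to let the elements be compared.
Nfkb2 (chr19:46304587-46304736, plus strand, 150 to 1 bases before the start): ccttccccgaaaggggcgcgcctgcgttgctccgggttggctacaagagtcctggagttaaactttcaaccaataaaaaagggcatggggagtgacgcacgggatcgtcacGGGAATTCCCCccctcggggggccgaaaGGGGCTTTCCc
Nfkb2, second stretch (chr19:46305695-46305724, plus strand, around the second annotated start and upstream of the third): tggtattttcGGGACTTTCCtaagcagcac
Rel (chr11:23770970-23771119, minus strand, 150 to 1 bases before the start): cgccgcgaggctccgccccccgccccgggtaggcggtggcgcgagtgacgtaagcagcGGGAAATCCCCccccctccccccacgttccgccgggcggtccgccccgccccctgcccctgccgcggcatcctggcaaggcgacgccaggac
Nfkbia (chr12:55492648-55492797, minus strand, 150 to 1 bases before the start): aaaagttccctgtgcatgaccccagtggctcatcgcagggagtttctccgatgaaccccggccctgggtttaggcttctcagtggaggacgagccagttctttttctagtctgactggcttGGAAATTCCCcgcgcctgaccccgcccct
Nfkbie (chr17:45555550-45555699, plus strand, 150 to 1 bases before the start): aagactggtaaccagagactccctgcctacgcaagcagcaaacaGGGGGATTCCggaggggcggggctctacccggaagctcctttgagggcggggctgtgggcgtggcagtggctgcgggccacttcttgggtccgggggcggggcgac
Bcl3 (chr7:19822734-19822763, minus strand, from 8 bases before the start to base 22 after it): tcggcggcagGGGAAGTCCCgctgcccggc
In Nfkbia the match ended 20 bases before the start, and in the first Nfkb2 window matches lay at 39 to 29 and at 11 to 2 bases before it. The second Nfkb2 stretch begins at the second annotated start and lies inside the region transcribed from it. Its match covered bases 11 to 20 counted from that start, and lay at positions -225 to -216 from the third. A further match, at positions -236 to -227 from the second start (chr19:46305459-46305468), lies outside the stretches shown. In Bcl3 the match covered bases 3 to 12 counted from the start, inside the transcribed region. These are letter matches and not measured binding. Whether a match bears on the values given below was not tested. In shMap3k7 against shControl, log2 values with a match were -2.64 (Bcl3), -0.82 (Nfkbie), -0.65 (Nfkbia), 0.13 (Rel) and 0.30 (Nfkb2). In the same order, shDouble against shControl gave -3.02, -0.75, -0.59, 0.20 and 0.27. For shDouble against shChd1 they were -3.40, -1.14, 0.03, -0.33 and 0.57. Rel, Nfkbie and Nfkb2 were not called against shControl. Rela and Nfkbib, without a match, were at 0.08 and -0.37, 0.11 and -0.52, and 0.51 and 0.30 in these comparisons.

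**Figure D2:**
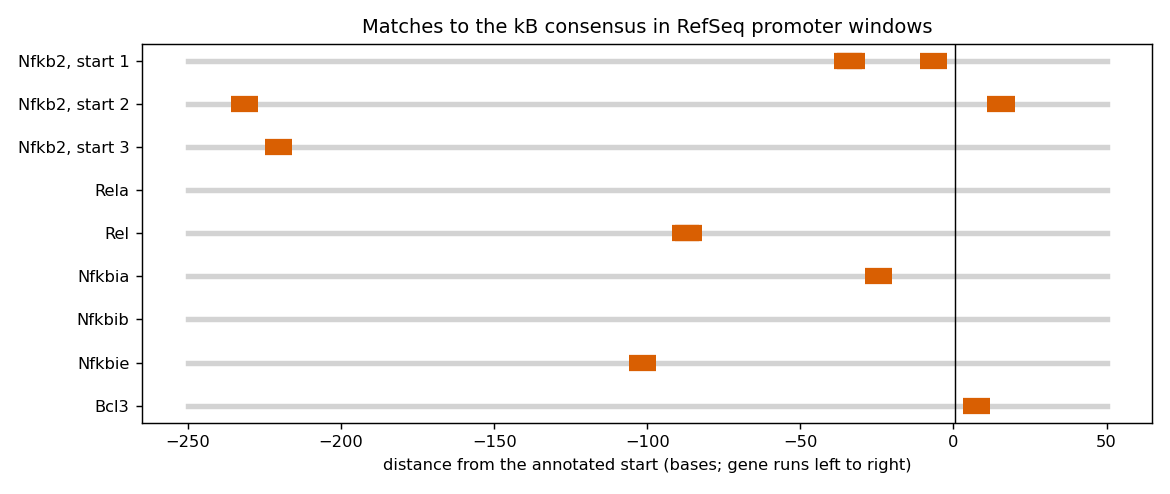
Grey lines are the RefSeq promoter windows of 7 members, from 250 bases before to 50 bases after each annotated start on the x axis, and boxes mark matches to the kB consensus on either strand. Nfkb2 has 3 annotated starts, all with a match, and the Rela and Nfkbib windows have none.

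The first question was what Map3k7 knockdown did to these genes in cells with control hairpins otherwise. In shMap3k7 against shControl, 4 of the 10 genes fell and 0 rose at a Benjamini-Hochberg adjusted p under 0.05 in edgeR's quasi-likelihood test, where 7.08% of all genes tested fell and 4.86% rose. The 4 were Bcl3, Relb, Nfkb1 and Nfkbia. The median log2 fold change of the 10 was -0.65, beside -0.01 over all genes tested. Where the Chd1 hairpin was present in both groups, in shDouble against shChd1, 5 of the 10 fell (Bcl3, Nfkb1, Nfkbiz, Relb and Rel) and 2 rose (Nfkb2 and Rela), against 22.2% and 22.6% of all genes. Their median was -0.46, beside 0.01 over all genes. Both shChd1 libraries come from control clone 4, so the Map3k7 hairpin and the clones cannot be told apart in this comparison. In shDouble against shControl, 5 fell (Bcl3, Nfkbiz, Relb, Nfkbia and Nfkb1) and 0 rose, against 13.6% and 10.2%, with a median of -0.56. The comparison of shDouble with shControl shares libraries with each of the others.

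The calls of Bcl3 were the only ones of the 10 to hold when the counts of libraries of the same line and group were summed before the fit, which left 1 member called in each of the 3 comparisons. Single libraries also moved these counts. In shMap3k7 against shControl, 2 members were called without shControl replicate 2, where 4.69% of all genes were called lower and 2.95% higher. Fewer members were also called there without either shMap3k7 or either shChd1 library, which left 1 library in that group. In shDouble against shChd1, fewer members were called without either shChd1 library. In each of these fits fewer of all genes were called as well, so the smaller counts are not particular to the members. Without shControl replicate 1, the puro and neo line, the counts of the 3 comparisons were 5, 8 and 6, where 7.65%, 22.6% and 12.6% of all genes were called lower and 4.98%, 22.8% and 8.89% higher.

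**Figure D3:**
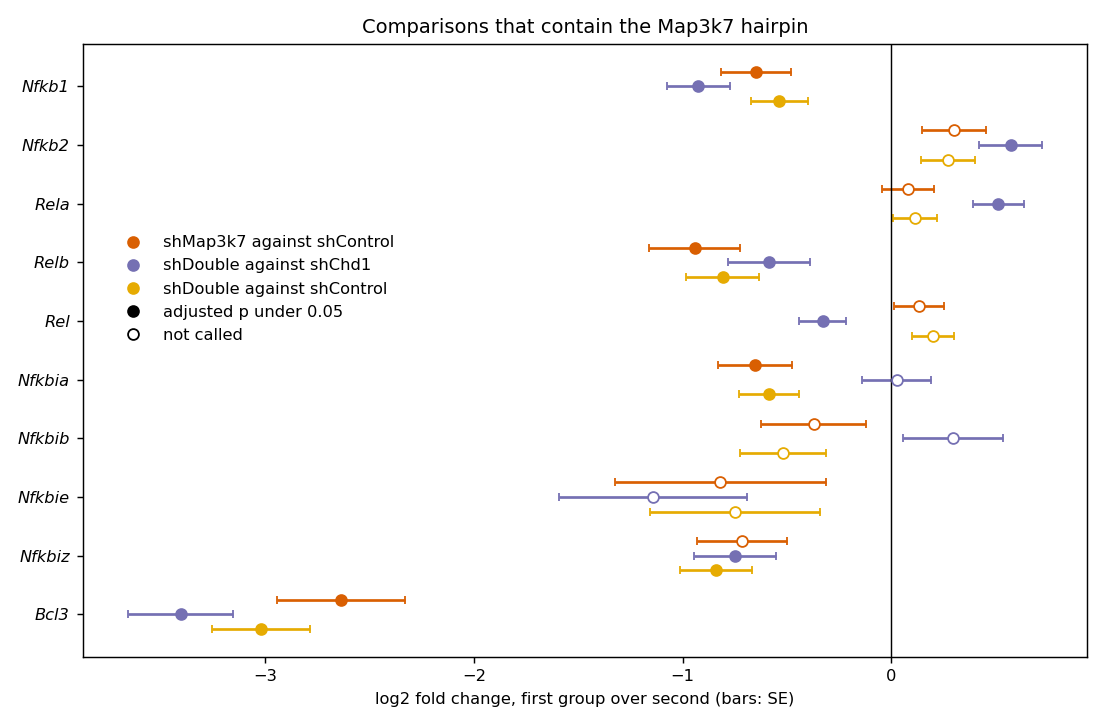
Points are log2 fold changes from edgeR, first group over second, with bars of 1 SE, for the 10 genes in the 3 comparisons that contain the Map3k7 hairpin; filled points passed an adjusted p of 0.05. Bcl3 stands far left at -2.64, -3.40 and -3.02, while Nfkb2 and Rela lie right of 0.

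Bcl3, a nuclear partner of p50 and p52 homodimers, changed most. The gene (ENSMUSG00000053175.17) lies on the minus strand of chromosome 7, 19808462 to 19822770 on GRCm38. It measured 5.01 and 9.78 CPM in shMap3k7 and 5.22, 6.01, 6.77 and 4.58 CPM in shDouble, against 59.9 and 59.9 CPM in shChd1 and 39.0, 59.8 and 38.7 CPM in shControl. All 6 libraries with a Map3k7 hairpin lay far below the other 5. The log2 fold change was -2.64 ± 0.30 in shMap3k7 against shControl (edgeR, adjusted p = 0.00119), which left 16.1% of the control mean. It was -3.40 ± 0.25 in shDouble against shChd1 (edgeR, adjusted p = 3.31e-05) and -3.02 ± 0.24 in shDouble against shControl (edgeR, adjusted p = 4.73e-05). The counts behind the low values were 77 to 135 per library, so the fall does not rest on a handful of reads. Among lines without the Map3k7 hairpin, all 3 libraries of control clone 4, with or without a Chd1 hairpin, stood at 59.8 to 59.9 CPM, and the puro and neo line and clone 5 stood at 39.0 and 38.7.

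Nfkb1, which encodes p105 and by its processing p50, was lower with the Map3k7 hairpin in both settings. The gene (ENSMUSG00000028163.17) lies on the minus strand of chromosome 3, 135584655 to 135691547. It measured 191 and 198 CPM in shMap3k7 and 184, 220.3, 214 and 223 CPM in shDouble, against 387 and 411 CPM in shChd1 and 241, 381 and 293 CPM in shControl. The 6 Map3k7 hairpin libraries lay within a narrow band below all others, while the libraries without it varied by clone, with control clone 4 highest. The log2 fold change was -0.65 ± 0.17 in shMap3k7 against shControl (edgeR, adjusted p = 0.0324), -0.93 ± 0.15 in shDouble against shChd1 (9.67e-04) and -0.54 ± 0.14 in shDouble against shControl (0.0182). Without the control clone 4 library the first was -0.46 and the third -0.35, neither called. The first was also not called without either shMap3k7 or either shChd1 library, at log2 values of -0.68 to -0.63 (edgeR, adjusted p = 0.0543 to 0.165).

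Relb, the subunit that pairs with p52 in the alternative pathway, lies on the minus strand of chromosome 7 (ENSMUSG00000002983.17, 19606217 to 19629438). It measured 21.6 and 14.4 CPM in shMap3k7 and 22.0, 23.6, 16.8 and 16.6 CPM in shDouble, against 29.4 and 30.0 CPM in shChd1 and 29.1, 38.1 and 36.6 CPM in shControl. The groups with and without the Map3k7 hairpin did not overlap, and within the hairpin groups every clone 7 library lay below every clone 1 library. Relb fell by 0.94 on the log2 scale in shMap3k7 against shControl (SE 0.22, edgeR adjusted p = 0.0217), by 0.59 in shDouble against shChd1 (SE 0.20, 0.0322) and by 0.81 in shDouble against shControl (SE 0.17, 0.00882). Without shMap3k7 replicate 2, the clone 7 library, its value against shControl was -0.69 and was not called, and without shControl replicate 2 it was -0.87 (edgeR, adjusted p = 0.0545). The call against shChd1 ended without either clone 7 shDouble library or either shChd1 library, at -0.61 to -0.51 (edgeR, adjusted p = 0.0691 to 0.142).

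Nfkbiz, whose protein IkB-zeta is needed in mouse macrophages for Il6 and other secondary response genes, lies on the minus strand of chromosome 16 (ENSMUSG00000035356.17, 55811375 to 55838899). It measured 71.4 and 86.3 CPM in shMap3k7 and 65.6, 73.7, 89.5 and 60.6 CPM in shDouble, against 134 and 109 CPM in shChd1 and 101, 127 and 160.4 CPM in shControl. Again the 6 and the 5 libraries did not overlap. It fell by 0.75 on the log2 scale in shDouble against shChd1 (SE 0.19, edgeR adjusted p = 0.0102) and by 0.84 in shDouble against shControl (SE 0.17, 0.00732). In shMap3k7 against shControl its log2 value was -0.72 ± 0.21 with an edgeR adjusted p of 0.0543, just outside the threshold, and it was called without shControl replicate 1 or shDouble replicate 3. The call against shChd1 ended without shChd1 replicate 1 (-0.60, edgeR adjusted p = 0.105). Bcl3, Nfkb1, Relb and Nfkbiz were thus the 4 members below all libraries without the Map3k7 hairpin, and 0 members lay above them. Over all genes tested, 12.8% were lower and 12.1% higher without overlap in the same split.

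Nfkbia, the classical inhibitor most rapidly resynthesised after NF-kB activation, differed in that the shChd1 libraries were also low. The gene (ENSMUSG00000021025.8) lies on the minus strand of chromosome 12, 55489410 to 55492647. It measured 56.9 and 41.8 CPM in shMap3k7 and 51.2, 61.0, 52.7 and 41.5 CPM in shDouble, against 53.3 and 48.1 CPM in shChd1 and 77.6, 69.7 and 85.3 CPM in shControl. All 8 libraries with a targeting hairpin lay below all 3 controls, a split for which the share of all genes was not counted. It fell by 0.65 on the log2 scale in shMap3k7 against shControl (SE 0.18, edgeR adjusted p = 0.0396) and by 0.59 in shDouble against shControl (SE 0.14, 0.0156). The difference of shDouble and shChd1 was 0.03 ± 0.17 (edgeR, adjusted p = 0.913). The call in shMap3k7 ended under 10 of 16 alternatives, among them the omission of either shMap3k7, either shChd1, shControl replicate 1 or 3, or shDouble replicate 1 or 3, with edgeR adjusted p of 0.0533 to 0.24.

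Nfkb2 and Rela rose in shDouble against shChd1. Nfkb2 (ENSMUSG00000025225.15, chromosome 19, plus strand, 46304320 to 46312385) measured 225 and 164 CPM in shMap3k7 and 222, 196, 183 and 161 CPM in shDouble, against 133 and 123 CPM in shChd1 and 148, 162 and 163 CPM in shControl. Clone 1 libraries were the highest and clone 7 libraries reached down to the controls. Nfkb2 rose by 0.57 ± 0.15 on the log2 scale in shDouble against shChd1 (edgeR, adjusted p = 0.0106), and its values against shControl were 0.30 ± 0.15 in shMap3k7 (0.219) and 0.27 ± 0.13 in shDouble (0.152). This call ended without either shChd1 library (edgeR, adjusted p = 0.0501 and 0.0989).

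Rela (ENSMUSG00000024927.8, chromosome 19, plus strand, 5637483 to 5648130) measured 161 and 136 CPM in shMap3k7 and 149, 174, 144 and 142 CPM in shDouble, against 111 and 102 CPM in shChd1 and 138, 129 and 156 CPM in shControl. The shChd1 libraries were the lowest, and the other groups overlapped. Rela rose by 0.51 ± 0.12 in shDouble against shChd1 (edgeR, adjusted p = 0.00653), with 0.08 ± 0.13 in shMap3k7 (0.718) and 0.11 ± 0.11 in shDouble (0.474) against shControl. Its call ended without shChd1 replicate 2 (0.45, edgeR adjusted p = 0.0765).

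Rel (ENSMUSG00000020275.9, chromosome 11, minus strand, 23736847 to 23770970) had small differences. It measured 21.3 and 24.4 CPM in shMap3k7 and 23.1, 23.5, 24.3 and 24.8 CPM in shDouble, against 29.2 and 30.9 CPM in shChd1 and 18.3, 22.7 and 21.6 CPM in shControl. The shChd1 libraries stood above all others. Rel fell by 0.33 in shDouble against shChd1 (SE 0.11, edgeR adjusted p = 0.0363), and the values against shControl were 0.13 ± 0.12 in shMap3k7 (0.499) and 0.20 ± 0.10 in shDouble (0.179). The call ended without shDouble replicate 1, 2 or 3 or either shChd1 library (edgeR, adjusted p = 0.0531 to 0.199).

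Nfkbib and Nfkbie passed in 0 of the 3 comparisons. Nfkbib (ENSMUSG00000030595.15, chromosome 7, minus strand, 28758251 to 28767512) measured 38.4 and 24.1 CPM in shMap3k7 and 33.1, 32.6, 24.7 and 22.4 CPM in shDouble, against 24.1 and 21.9 CPM in shChd1 and 40.5, 31.5 and 49.4 CPM in shControl. As with Relb, clone 7 lay below clone 1 in every library. Nfkb2, Rela and Nfkbie were ordered the same way without overlap, and Rel the other way. Its log2 values were -0.37 ± 0.25, 0.30 ± 0.24 and -0.52 ± 0.21 in the 3 comparisons, in the order used above (edgeR, adjusted p = 0.353, 0.342 and 0.0932).

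Nfkbie (ENSMUSG00000023947.8, chromosome 17, plus strand, 45555703 to 45563169) measured 16.1 and 8.11 CPM in shMap3k7 and 14.6, 15.6, 9.01 and 11.8 CPM in shDouble, against 25.0 and 31.4 CPM in shChd1 and 7.49, 30.5 and 26.2 CPM in shControl. The puro and neo control line, at passage 30, was the lowest of all 11 libraries, while every other library without the Map3k7 hairpin lay above every library with it. The log2 fold change of Nfkbie was -0.82 ± 0.51 in shMap3k7 against shControl (edgeR, adjusted p = 0.311), -1.14 ± 0.45 in shDouble against shChd1 (0.061) and -0.75 ± 0.41 in shDouble against shControl (0.21). Without that 1 control library, Nfkbie was called lower in all 3 comparisons, at -1.22, -1.14 and -1.15 with edgeR adjusted p of 0.0417, 0.00787 and 0.0167. The same omission brought Nfkbiz past the threshold in shMap3k7 against shControl and ended the call of Nfkbia there.

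Whole chromosomes were shifted in the Map3k7 clones, among them some that carry the 10 genes. On chromosome 19, which carries Nfkb2 and Rela, the median departure of all tested genes from the shControl mean on the log2 scale was 0.45 to 0.48 in clone 1 and 0.27 to 0.31 in clone 7 (3 libraries each), and -0.06 to 0.04 in the 5 libraries without the Map3k7 hairpin. In shDouble against shChd1, where both were called, Nfkb2 at 0.57 and Rela at 0.51 stood 0.17 and 0.11 above the chromosome median of 0.40, and 185 and 204 of the other genes of the chromosome stood higher than they did. Against shControl both were below the chromosome median, by 0.06 for Nfkb2 and 0.28 for Rela in shMap3k7. On chromosome 7, which carries Relb, Nfkbib and Bcl3, the median departure was -0.40 to -0.37 in clone 7 and -0.10 to -0.07 in clone 1. In shMap3k7 against shControl, Relb stood 0.71 below the chromosome 7 median of -0.23, Nfkbib 0.14 below it and the Bcl3 value less that median was -2.40, with 35 of the 1120 tested genes of that chromosome lower than Bcl3. Chromosome 16, with Nfkbiz, stood at -0.24 to -0.20 in clone 7 and 0.04 to 0.07 in clone 1. It also differed among the control lines, at -0.15 to -0.10 in control clone 4 and 0.08 in both clone 5 and the puro and neo line. Chromosomes 3, 11, 12 and 17, which carry Nfkb1, Rel, Nfkbia and Nfkbie, had medians between -0.08 and 0.08 in both Map3k7 clones. In control clone 4, chromosome 3 stood at 0.03 to 0.13. The part of these chromosome shifts in the members' values was not tested.

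**Figure D4:**
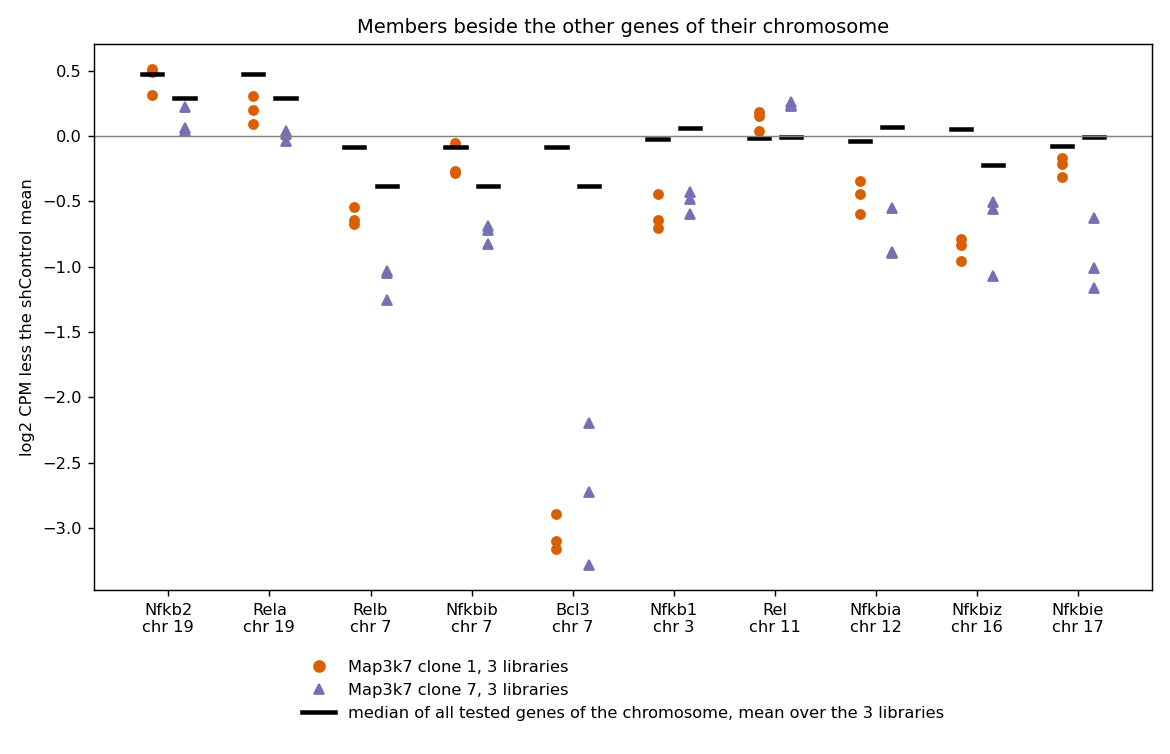
The y axis gives log2 CPM of each library less the shControl mean for the 10 genes along the x axis, with clone 1 libraries as circles and clone 7 libraries as triangles; black bars give the median of all tested genes of that chromosome. Nfkb2 and Rela lie near or below the raised bars of chromosome 19, and Bcl3 lies far below the bars of chromosome 7.

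The second question was what the Chd1 hairpin did to these genes. In shChd1 against shControl, 1 of the 10 was called, Rel, higher by 0.53 ± 0.12 on the log2 scale (edgeR, adjusted p = 0.047), where 2.91% of all genes were called in either direction. The call of Rel ended under 14 of 17 alternatives, among them the line as a replicate block, which gave 0.40 with an edgeR adjusted p of 0.138, and the omission of any single library other than shControl replicate 2. Without that library, the control clone 4 library itself, 5 members were called, Rel and Nfkb1 higher and Rela, Nfkbia and Nfkbib lower, where 8.03% of all genes were called higher and 10.6% lower. Both shChd1 libraries also stood below all 3 controls in Nfkb2, Rela, Nfkbia and Nfkbib, and above them in Nfkb1 and Bcl3, without a call. Over all genes tested, 23.5% lay below and 23.1% above all 3 controls in this split, beside 4 of the 10 members below and, with Rel, 3 above. In Bcl3 the gap was small, with both shChd1 libraries at 59.9 CPM and the highest control at 59.8. The largest of these, Nfkbib, had a log2 value of -0.81 ± 0.25 (edgeR, adjusted p = 0.0924). Nfkb1 was at 0.39 ± 0.16 (0.171), Nfkb2 at -0.30 ± 0.16 (0.26), Rela at -0.40 ± 0.13 (0.0954), Nfkbia at -0.61 ± 0.18 (0.0779) and Bcl3 at 0.39 ± 0.26 (0.378). The groups overlapped in Relb at -0.22 ± 0.21 (edgeR, adjusted p = 0.543), Nfkbie at 0.39 ± 0.48 (0.644) and Nfkbiz at -0.09 ± 0.21 (0.819). Because both libraries come from control clone 4, the clone and the hairpin cannot be told apart in this comparison.

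The design also allows the Chd1 hairpin to be set against the same line without it, in control clone 4 and Map3k7 clones 1 and 7, with both constructs in each. With the line as a replicate block, 0 of the 10 genes were called, where 4 of 14151 genes tested (0.0283%) were called by edgeR. Chd1, the target, was itself not called in this fit, at -0.34 ± 0.07 (edgeR, adjusted p = 0.499), so the lack of calls cannot show what loss of Chd1 does. Chd1 was also not called in shDouble against shControl, at -0.13 ± 0.09 (0.291), and was higher in shDouble than in shChd1, by 0.33 ± 0.10 (0.0199). At an unadjusted p under 0.05 there was 1 member, Nfkbib, at -0.24 ± 0.09 (edgeR, adjusted p = 0.935), which was lower with the hairpin in 5 of 6 pairs, and 5% of all genes tested were under the same unadjusted p. Rel was higher in 5 of 6 pairs, by 0.37 and 0.44 on the log2 scale in control clone 4 against -0.01 to 0.14 in the Map3k7 clones. Nfkbia was lower by 0.39 and 0.54 in control clone 4 and lay between -0.15 and 0.34 in the Map3k7 clones. Rela and Nfkb2 were likewise lower in both clone 4 pairs, Rela by 0.21 and 0.33 and Nfkb2 by 0.28 and 0.39. Relb was lower by 0.37 and 0.34 in clone 4 and higher by 0.03 to 0.22 in all 4 Map3k7 clone pairs. In Rel above, and in Nfkb2, Rela, Relb, Nfkbia and Nfkbib below, both clone 4 pairs lay outside the range of the 4 Map3k7 clone pairs, as did 17.8% of all genes above and 21.6% below. The pairs of a line share the library without the hairpin, so they are not independent. Bcl3 differed by 0.00 in both clone 4 pairs, by 0.06 and 0.26 in clone 1 and by -0.53 and -1.09 in clone 7. The pairs of the 3 other members spanned 0: Nfkb1 from -0.06 to 0.20, Nfkbie from -0.28 to 0.53 and Nfkbiz from -0.51 to 0.08. The fitted within-line values of the 9 members other than Nfkbib lay between -0.18 (Bcl3) and 0.18 (Rel), with edgeR adjusted p of 0.935 to 0.993.

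**Figure D5:**
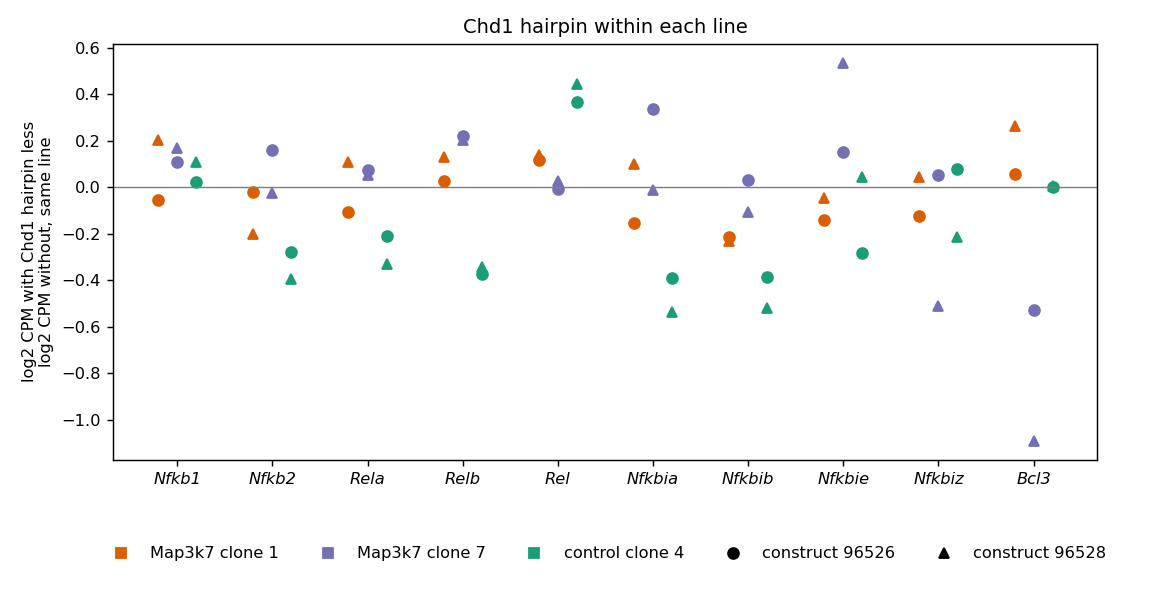
The y axis gives log2 CPM with a Chd1 hairpin less log2 CPM of the same line without it, for the 10 genes along the x axis; colour gives the line and shape the construct, and each point is 1 pair of libraries. Both control clone 4 pairs lie outside the range of the Map3k7 clone pairs in Rel, where they are higher, and in Nfkb2, Rela, Relb, Nfkbia and Nfkbib, where they are lower.

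An interaction of group means was tested: the log2 difference between shDouble and shMap3k7, minus that between shChd1 and shControl. Lines were not paired in it, and both shChd1 libraries come from control clone 4 while shControl holds 3 lines. The term therefore also holds the difference of clone 4 from the other control lines, which cannot be told apart from the action of the hairpin. No member passed, and 0% of all genes did in edgeR, with 1998 genes at an unadjusted p under 0.05 and 395 called by DESeq2. Of the 10, 3 had an unadjusted p under 0.05 in edgeR: Nfkbia at 0.68 ± 0.24 (adjusted p = 0.281), Rela at 0.43 ± 0.17 (0.317) and Rel at -0.46 ± 0.17 (0.281), where 13.9% of all genes were under that p. The other 7 had edgeR adjusted p of 0.39 to 0.974, with Nfkbib at 0.67 ± 0.35, Relb at 0.35 ± 0.29, Nfkb2 at 0.27 ± 0.21, Nfkbiz at -0.03 ± 0.29, Nfkb1 at -0.28 ± 0.23, Nfkbie at -0.32 ± 0.68 and Bcl3 at -0.77 ± 0.38. In Nfkbia, Rela and Rel both control clone 4 pairs differed by more than any Map3k7 clone pair. Those clone 4 pairs share 1 library without the hairpin, which also enters the interaction, so they are no separate evidence. Over all genes, both clone 4 pairs lay above the Map3k7 clone pairs in 17.8% and below them in 21.6%. For Nfkbia, Rela and Rel the interaction was called in 0 of 16 alternatives, the line as a replicate block among them.

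The rest of the pathway was described with 4 lists that were chosen with earlier results of these data known. The counts of each list are to be read against the shares of all genes that rose and fell, which were 4.86% and 7.08% in shMap3k7 against shControl, 22.6% and 22.2% in shDouble against shChd1, and 10.2% and 13.6% in shDouble against shControl. Of 25 kinases and adaptors upstream of the IkB proteins, 1 rose and 2 fell in shMap3k7 against shControl, 8 rose and 5 fell in shDouble against shChd1, and 5 rose and 3 fell in shDouble against shControl. These were 4% and 8%, 32% and 20%, and 20% and 12% of the list. Their median log2 values were -0.07, 0.12 and -0.05, where the medians of all genes tested lay between -0.01 and 0.01. Map3k7 itself was 1 of those that fell. Ikbkg, the regulatory NEMO subunit of the IkB kinase complex, fell to 34.5 ± 2.0 CPM in shMap3k7 and 32.7 ± 3.78 in shDouble, against 67.8 ± 8.70 in shChd1 and 48.8 ± 4.61 in shControl, a log2 change of -1.05 ± 0.13 in shDouble against shChd1 (edgeR, adjusted p = 2.13e-04). Map3k14, which encodes the NIK kinase that drives processing of the Nfkb2 product, averaged 26.7 ± 3.35 CPM in shMap3k7 and 26.3 ± 3.65 in shDouble, against 12.5 ± 1.38 in shChd1 and 18.6 ± 3.54 in shControl. It rose by 1.08 ± 0.19 in shDouble against shChd1 (edgeR, adjusted p = 0.00133) and by 0.50 ± 0.16 in shDouble against shControl (0.0414), and was at 0.52 ± 0.19 in shMap3k7 against shControl (0.0917). Card10, a scaffold for NF-kB activation in epithelial cells, averaged 257 ± 5.86 CPM in shMap3k7 and 281 ± 12.3 in shDouble, against 86.5 ± 31.1 in shChd1 and 178 ± 34.4 in shControl. It rose by 1.70 ± 0.21 in shDouble against shChd1 (edgeR, adjusted p = 2.16e-04) and by 0.66 ± 0.17 in shDouble against shControl (0.0186), was at 0.53 ± 0.20 in shMap3k7 against shControl (0.105), and fell by 1.04 in shChd1 against shControl (SE 0.21, 0.0365). Ikbkb, the catalytic IKK-beta subunit, was called in none of the 3. Chuk, the other catalytic subunit, rose by 0.47 ± 0.11 in shMap3k7 against shControl (0.0216) and lies on chromosome 19, whose median in that comparison was 0.36.

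Of 14 brakes on NF-kB outside the 10 members, 0 rose and 1 fell in shMap3k7 against shControl, 3 rose and 3 fell in shDouble against shChd1, and 0 rose and 3 fell in shDouble against shControl, with medians of 0.06, -0.01 and 0.08. The 3 in each direction in shDouble against shChd1 were 21.4% of the list, close to the shares of all genes. Zc3h12a, which encodes the RNase Regnase-1 and is itself NF-kB induced, fell in all 3 and measured 13.9 ± 0.253 CPM in shMap3k7 and 13.2 ± 2.35 in shDouble, against 50.7 ± 8.66 in shChd1 and 46.4 ± 13.6 in shControl. Tank, an adaptor that binds TRAF proteins, fell by 0.63 (SE 0.13, edgeR adjusted p = 0.00258) and N4bp1, a suppressor of cytokine responses, by 0.70 (SE 0.15, 0.00357) in shDouble against shChd1. Both also fell in shDouble against shControl, by 0.39 and 0.58 (SE 0.11 and 0.13, edgeR adjusted p = 0.0296 and 0.0118), and missed the threshold in shMap3k7 against shControl, at -0.39 ± 0.14 and -0.51 ± 0.16 (0.0877 and 0.0663). Pdlim2, whose protein promotes degradation of nuclear p65 in mouse, averaged 9.0 ± 2.90 CPM in shMap3k7 and 11.7 ± 2.09 in shDouble, against 2.55 ± 0.960 in shChd1 and 7.71 ± 4.22 in shControl. It rose by 2.19 ± 0.48 in shDouble against shChd1 (edgeR, adjusted p = 0.00428), where the shChd1 libraries were low, and was not called against shControl, at 0.23 ± 0.44 in shMap3k7 (0.772) and 0.60 ± 0.37 in shDouble (0.268). Tnfaip3, the feedback deubiquitinase A20, was called in none of the 3, with log2 values of -0.06, 0.32 and -0.04. Of 9 measured genes for IkB phosphorylation and turnover, 1 rose and 0 fell, 2 rose and 1 fell, and 1 rose and 1 fell in the same order of comparisons, with medians of 0.20, 0.20 and 0.13. The 2 that rose in shDouble against shChd1 were 22.2% of the list, close to the share of all genes. Btrc, which encodes the F-box protein beta-TrCP that recognises phosphorylated IkB, fell by 0.86 (SE 0.18, edgeR adjusted p = 0.00335) in shDouble against shChd1 and by 0.62 in shDouble against shControl (SE 0.16, 0.0195), and was at -0.59 ± 0.20 in shMap3k7 against shControl (0.0771). Csnk2b, the regulatory subunit of casein kinase 2, rose by 0.25 ± 0.09 in shDouble against shChd1 (edgeR, adjusted p = 0.039) and was at 0.05 ± 0.09 in shMap3k7 (0.744) and 0.07 ± 0.07 in shDouble (0.549) against shControl.

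Of 44 genes known to be induced by NF-kB, 36 passed the filter on low counts and 8 did not. Of the 36, 6 (Il6, Cxcl2, Ccl7, Icam1, Saa3 and Steap4) were under 10 counts in every library with a Map3k7 hairpin and passed through the libraries without it, and 1 (Mmp9) the other way round. The counts that follow are therefore a description of the genes that passed and not of the 44. In shMap3k7 against shControl 1 rose and 16 fell, in shDouble against shChd1 8 rose and 19 fell, and in shDouble against shControl 2 rose and 19 fell. The genes that rose in shDouble against shChd1 were 22.2% of the 36, near the share of all genes, and those that fell 52.8%. Il6, an inflammatory cytokine, measured 0.351 ± 0.221 CPM in shMap3k7 and 0.142 ± 0.101 in shDouble, against 16.6 ± 1.23 in shChd1 and 16.8 ± 6.22 in shControl. The chemokine gene Cxcl2 measured 0.380 ± 0.0774 and 0.151 ± 0.148 CPM with the Map3k7 hairpin in the same groups, against 19.5 ± 0.447 in shChd1 and 18.8 ± 9.59 in shControl. Steap4, a metalloreductase, measured 0.246 ± 0.164 CPM in shMap3k7 and 0.136 ± 0.158 in shDouble, against 44.9 ± 18.0 in shChd1 and 18.4 ± 6.61 in shControl. These levels with the Map3k7 hairpin are near the 0.13 to 0.22 CPM that 3 counts give in a library. Cd44, a cell adhesion receptor, went the other way and rose by 1.04 ± 0.17 in shMap3k7 against shControl (edgeR, adjusted p = 0.00544).

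Genes with a pattern like that of Bcl3, the member with the largest called fall in shDouble against shControl, were ranked by the root mean square difference of log2 CPM over the 11 libraries after centring each gene on its own mean. The nearest of 9900 genes were Osmr at 0.238, Cd14 at 0.240, Glrx at 0.245 and Ksr1 at 0.264, beside a median of 1.60 over all of them. Osmr, a receptor subunit for oncostatin M, averaged 7.68 CPM in shMap3k7 and 6.48 in shDouble, against 88.5 in shChd1 and 62.9 in shControl. Cd14, a co-receptor for bacterial lipopolysaccharide, averaged 13.8 and 12.0 CPM in shMap3k7 and shDouble, against 127 in shChd1 and 96.4 in shControl. Glrx encodes the thiol reductase glutaredoxin and Ksr1 a scaffold of the MAP kinase cascade. Like Bcl3, all 4 genes had higher group means in shChd1 than in shControl, which their choice by likeness over these same libraries favours. No member rose with a call in shDouble against shControl, so no gene was sought for a rising pattern.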

How the data were processed

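Polyadenylated RNA of 11 WFU3 libraries was sequenced. The authors deposited expected counts (RSEM's per-gene estimates, before any normalization). Per the submitters' processing notes these came from Bowtie2 and RSEM 1.3.1 on GRCm38, and limma is also named. Which gene annotation and strand setting were used is not given in the sources used here. RSEM divides reads shared between similar genes, which left 2 values of the members not whole, both of Nfkbib. The deposited log2 table was not used. The labels describe no strand marking, so antisense reads cannot be told apart.

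Expected counts were rounded and analysed in R 4.3.3 with edgeR 4.0.16, using TMM factors and filterByExpr (minimum count 10, minimum total 15). A model with 4 group means was fitted to all 11 libraries and tested by quasi-likelihood, with p-values adjusted over 14346 genes by the Benjamini-Hochberg method and calls at an adjusted p under 0.05. The Chd1 hairpin was also tested over 9 libraries with the line as a replicate block, a pairing that the labels give; clone 1 less clone 7 gave a Pearson r of 0.500 over genes between shMap3k7 and shDouble. CPM are TMM-scaled, means carry the SD and log2 fold changes the SE. Gene positions and exon lengths are from GENCODE M21 on GRCm38, and promoters from RefSeq. The steps were tested on simulated data. The members, lists and tests were chosen with earlier results of these data known. All 10 members were named in every comparison, with up to 4 called genes of each list by smallest adjusted p and the 4 genes most like the member with the largest called fall. A gene that this rule picks is not reported here. Ikbkb, Chuk and Tnfaip3 were named for their roles after their values were seen. Alternatives were DESeq2 size factors, no low count filter, the DESeq2 1.42.0 Wald test, only the groups compared, counts summed per line and group, each library left out, and the block added or removed.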

Additional observations from a re-analysis of the deposited data

How the results depend on the processing

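Bcl3 kept its direction and its call under all 16 alternatives in each of the 3 comparisons with the Map3k7 hairpin, with log2 values of -3.20 to -2.23, -3.50 to -3.32 and -3.13 to -2.78. Counts summed per line and group left 400 genes and 1 member called in shMap3k7 against shControl, 1569 and 1 in shDouble against shChd1, and 554 and 1 in shDouble against shControl, with fewer libraries in the fit. In shMap3k7 against shControl, DESeq2 called 2599 genes, only the groups compared 227 genes and 1 member, and leaving out single libraries 244 to 2070 genes and 1 to 5 members. Leaving out single libraries gave 3649 to 6585 genes and 3 to 8 members in shDouble against shChd1, lowest in members without either shChd1 library, and 2177 to 3273 genes in shDouble against shControl. In shChd1 against shControl the counts of genes and members were 684 and 0 with no low count filter, 1715 and 4 by DESeq2, 0 and 0 with only the groups compared, 0 and 0 with summed counts, 139 and 0 with the line as a replicate block, and 0 to 2650 and 0 to 5 without single libraries. Within lines, 25 genes were called with no low count filter, 2 with summed counts, 1 with no replicate block and 0 to 5 without single libraries. For the interaction these were 31 with no low count filter, 395 by DESeq2, 11 with the replicate block and 0 to 1006 without single libraries. Uncalled values changed sign for Rela in shMap3k7 against shControl (-0.0494 to 0.185), Nfkbia in shDouble against shChd1 (-0.0834 to 0.116), and, in shChd1 against shControl, Nfkbie (-0.00822 to 0.738 without single libraries, and -0.117 with the replicate block), Nfkbiz (-0.247 to 0.0908) and Bcl3 (-0.00162 with the replicate block). The causes were not tested.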

Other observations

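On the scale of CPM per kilobase, the balance between the 2 precursor subunits differed between the groups. The ratio of Nfkb1 to Nfkb2 was 0.324 and 0.459 in shMap3k7 and 0.316, 0.428, 0.443 and 0.524 in shDouble, against 1.10 and 1.27 in shChd1 and 0.618, 0.895 and 0.683 in shControl. All 6 libraries with the Map3k7 hairpin lay below the other 5. The ratio of Rela to Relb was 8.58 to 12.0 in the 6 libraries with the Map3k7 hairpin and 4.27 to 6.0 in the 5 without it. Nfkb1 and Relb each separated the same 6 and 5 libraries alone, so the separation of the ratios is not a further result. Nfkb2 and Rela lie on chromosome 19 and Relb on chromosome 7, whose medians were shifted in the Map3k7 clones, and the part of these shifts in the ratios was not tested.

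The 5 subunits summed to 115 ± 15.6 CPM per kilobase in shMap3k7, 117 ± 8.67 in shDouble, 107 ± 1.96 in shChd1 and 117 ± 8.66 in shControl, so on this scale their total ranged little while their composition shifted. A shorter length for Nfkb1 than the 12061 bases used would give its fall more weight in this total, which was not examined. The 3 classical inhibitors summed to 49.0 ± 13.1, 49.2 ± 7.65, 51.3 ± 1.49 and 73.9 ± 9.15 in the same order of groups. Nfkbia was the largest part of these sums, at 30.7, 32.0, 31.5 and 48.2, and it alone already separated the controls. Nfkbie went the other way in shChd1, at 9.26 ± 1.47 beside 7.03 ± 4.02 in shControl, while Nfkbib was at 10.6 and 18.7. Inhibitor over subunit mRNA was 0.384 to 0.464 in shMap3k7, 0.372 to 0.458 in shDouble and 0.474 to 0.481 in shChd1, and 0.558 to 0.687 in shControl. All 3 controls thus lay above the 8 libraries with a targeting hairpin, as they did for Nfkbia. These sums and their ratio depend on the exon lengths used, were formed after the values of single genes were seen and carry no test.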
